A study of Mus musculus with 45 samples.

Results

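The 10 genes described here mark tuft cells, and they were picked by name (Dclk1, Trpm5, Pou2f3, Gfi1b, Avil, Ptgs1, Hpgds, Sh2d6, Alox5 and Il25) among the 52636 genes of the expression tables. Each of the 10 symbols matched 1 row in both tables. The RNA came from 45 mouse libraries, 15 of FACS-sorted Lgr5 cells and 30 of intestinal organoids. The study asked what the receptor Lgr5, which marks intestinal stem cells, does in these cells in the embryo and in the adult.

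Sorted cells of the Lgr5-DTReGFP strain, in which a cassette for a toxin receptor and eGFP is knocked into the Lgr5 locus and disrupts it, were GFP+ve cells that passed a gate against doublets. At E16.5 they came from the whole small intestine, in 2 pools of heterozygous (HE) embryos (7 and 8 embryos) and 2 pools of homozygous knockout (KO) embryos (2 and 6 embryos), with 1 HE and 1 KO pool from each of 2 litters. At E18.5 they came from the small intestine of 2 HE embryos. Adult cells came from crypts of the duodenum and of the ileum of the same 2 HE mice, aged 2 months. A further 5 adult ileum libraries came from the Lgr5-Cre strain (Lgr5-GFP-CreERT2 with a Rosa26R-Tomato reporter), sorted as eGFP+ve Tomato+ve cells 48 h after 2 mg of tamoxifen. Of these, 2 are labelled HE (1 Cre knock-in allele and 1 wild-type allele) and 3 cKO (1 Cre allele and 1 floxed allele that loses exon 16 of Lgr5). Every adult mouse thus carried at least 1 disrupted Lgr5 allele. Organoids were grown from E17.5 Lgr5-DTReGFP embryos as 3 wild-type (WT) cultures, named WT10, WT5 and WT30, and 2 KO cultures, KO7 and KO2, each from 1 embryo, and at passage 4 were given Rspo1, Rspo2 or Rspo3 at 100 or 5 ng/ml.

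Tuft cells are rare chemosensory cells of the gut epithelium that arise, like the other epithelial lineages, from Lgr5 stem cells. They sense luminal molecules through the signalling chain of taste cells, and answer with acetylcholine, prostaglandins, leukotrienes and the cytokine IL-25, which wakes type 2 innate lymphoid cells during worm infection. Among the 10 genes, Pou2f3 codes for the POU-domain transcription factor needed for the lineage, and Gfi1b for a zinc-finger repressor. Trpm5 codes for the cation channel that closes the taste-signalling chain, Dclk1 for a kinase bound to microtubules, Avil for an actin-binding protein of the villin family, and Sh2d6 for a protein with an SH2 domain. Ptgs1 (cyclooxygenase 1), Hpgds (prostaglandin D synthase) and Alox5 (5-lipoxygenase) make lipid mediators, and Il25 codes for IL-25. Alox5, Hpgds, Ptgs1 and Gfi1b are also expressed by blood or stromal cells.

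POU factors bind the octamer, so the promoters of the 10 genes were read for the letters ATGCAAA on either strand (TTTGCAT on the other). RefSeq promoters on GRCm38.p6, taken from 250 bases before to 50 bases after a start, were found for 8 of the 10 genes as 9 promoters. The letters stood in 2 of these 9 promoters, those of Avil and Hpgds, against 4.63% of all 32851 promoters. The full octamer of 8 letters, ATGCAAAT, stood in that of Hpgds and in 1.74% of all promoters. Those 2 promoters are shown with that of Trpm5, an example of the others, all of which lack these letters. Capitals mark the match, and each is written 5' to 3' on the strand of the gene, Avil at chr10:127000459-127000758 on the plus strand, Hpgds at chr6:65144681-65144980 on the minus strand and Trpm5 at chr7:143094593-143094892 on the minus strand.
Avil: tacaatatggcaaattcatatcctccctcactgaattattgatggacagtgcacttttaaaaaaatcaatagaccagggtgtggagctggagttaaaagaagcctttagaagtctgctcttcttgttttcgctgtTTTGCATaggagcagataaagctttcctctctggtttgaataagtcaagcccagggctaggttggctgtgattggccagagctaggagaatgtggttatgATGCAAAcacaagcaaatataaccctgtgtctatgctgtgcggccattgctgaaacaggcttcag
Hpgds: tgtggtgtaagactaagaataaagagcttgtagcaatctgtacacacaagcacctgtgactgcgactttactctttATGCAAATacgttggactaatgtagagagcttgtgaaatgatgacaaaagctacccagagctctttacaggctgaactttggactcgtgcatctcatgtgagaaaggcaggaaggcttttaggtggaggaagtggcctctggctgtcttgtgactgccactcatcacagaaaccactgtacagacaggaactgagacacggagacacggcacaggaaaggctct
Trpm5: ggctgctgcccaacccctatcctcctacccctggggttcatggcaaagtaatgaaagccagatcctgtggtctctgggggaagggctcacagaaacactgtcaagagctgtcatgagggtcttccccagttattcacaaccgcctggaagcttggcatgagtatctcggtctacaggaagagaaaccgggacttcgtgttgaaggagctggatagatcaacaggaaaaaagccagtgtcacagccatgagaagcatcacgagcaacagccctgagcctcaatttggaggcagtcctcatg

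On GRCm38 the genes lie at chr3:55242364-55539068 (Dclk1), chr7:143069153-143094642 (Trpm5), chr9:43123939-43210369 (Pou2f3), chr2:28609450-28621982 (Gfi1b), chr10:127000709-127020994 (Avil), chr2:36230426-36252272 (Ptgs1), chr6:65117293-65144908 (Hpgds), chr6:72513641-72521707 (Sh2d6), chr6:116410077-116461178 (Alox5) and chr14:54932695-54935837 (Il25). The values count reads over all exons of each gene.

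Depth was 1276256 to 9976867 reads on genes in sorted cells and 18126684 to 33106587 in organoids, as recovered from the steps of the deposited CPM (reads of a gene scaled to the total reads on genes). A value of 0 allows up to 3 reads by counting error, which is 2.35 CPM in the shallowest library. The targeted gene Lgr5 had 104 and 125 CPM in the E16.5 HE pools and 51.6 and 64.8 CPM in the KO pools (-0.97 log2, limma adjusted p = 0.0795). Gene counts of Lgr5 include exons outside the insert or the deletion, so they are a partial check of genotype. By qRT-PCR, the study found more of the truncated Lgr5 transcript in KO than in WT ileum at E18.5. The direction of Lgr5 counts thus does not settle a genotype. In the tamoxifen libraries Lgr5 was at 52.8 and 87.5 CPM in the libraries labelled HE and 89.2 to 109 CPM in those labelled cKO. For those 5 libraries a supplementary table of the study gives the same values, equal in 859 of 859 genes compared, but places the library labelled HE 1 under cKO and the library labelled cKO 2 under HE. Another library stood apart in organoids. The library labelled KO2 at 5 ng/ml Rspo2 had 90.5 CPM of Lgr5 and 433 CPM of the Wnt target Axin2, where the other 14 libraries at 5 ng/ml had 0.200 to 28.7 and 2.20 to 138 CPM, and the 15 libraries at 100 ng/ml had 35.1 to 458 and 88.2 to 615 CPM. The KO7 library of the same condition had 20.6 CPM of Lgr5, below the range at 100 ng/ml, and 138 CPM of Axin2, within it. The study reports, from RNA-seq and qRT-PCR, that Wnt target genes under Rspo2 stayed higher in KO than in WT organoids at any dose. Whether the KO2 library shows that effect or stands apart for another reason was not tested. Calls or differences of tuft cell genes that involve the KO2 library are given with and without it.

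Tuft cell genes were near the limit of detection in the sorted embryonic cells and abundant in the adult. The level of Trpm5 was 0 in both E16.5 HE pools, 0 and 0.4 CPM in the KO pools, and 0.5 and 1.55 CPM at E18.5. In the adult it was 639 and 1213 CPM in the duodenum of the 2 mice and 70.8 and 141 CPM in their ileum. All adult values lie above all embryonic ones.

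The transcription factors were lower in absolute terms and followed the same order. Pou2f3 stood at 0.25 to 1.6 CPM in the 6 embryonic libraries, 92.4 and 164 CPM in adult duodenum, and 11.9 and 23.6 CPM in ileum. Gfi1b was read in 1 embryonic library (0.8 CPM, a single read) and was at 0 in the other 5, and reached 20.7 and 36.6 CPM in duodenum and 1.0 and 3.45 CPM in ileum. Il25, the cytokine, was at 0 in all 6 embryonic libraries and stayed low in the adult, at 4.3 and 6.55 CPM in duodenum and 1.0 and 0.7 CPM in ileum.

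Dclk1, Sh2d6 and Avil, with Trpm5, reached the highest adult levels. Dclk1 was at 0.4 to 4.75 CPM in the embryonic libraries, 656 and 1069 CPM in duodenum and 85.2 and 176 CPM in ileum. Sh2d6 was at 0 to 1.6 CPM in the embryo, 635.5 and 1023 CPM in duodenum and 79.5 and 118 CPM in ileum. Avil was at 0 to 1.95 CPM in the embryo, 326 and 557 CPM in duodenum and 39.6 and 79.2 CPM in ileum. In these 3 genes the duodenum of each mouse exceeded its ileum by 6.06 to 8.69 times.

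Of the enzymes that make lipid mediators, Alox5 was near 0 in the embryo, whereas both prostaglandin enzymes were measured there. Alox5 was at 0 to 1.55 CPM in the embryo, 138 and 258 CPM in duodenum and 8.8 and 19.7 CPM in ileum. Ptgs1 was already at 15.6 ± 1.31 CPM (SD, n = 2) in the E16.5 HE pools, 3.85 and 3.6 CPM in the KO pools and 0.7 and 0 CPM at E18.5, before 112 and 179 CPM in adult duodenum and 13.7 and 22.2 CPM in ileum. Hpgds was read in every embryonic library, at 11 and 5.55 CPM in the E16.5 HE pools, 1.95 and 2.4 CPM in the KO pools and 4.2 and 5.3 CPM at E18.5, and reached 44.2 and 76.1 CPM in duodenum and 20.7 and 25.9 CPM in ileum. The E16.5 HE values of Ptgs1 thus lie within the range of the adult ileum, unlike those of the other 9 genes.

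**Figure D1:**
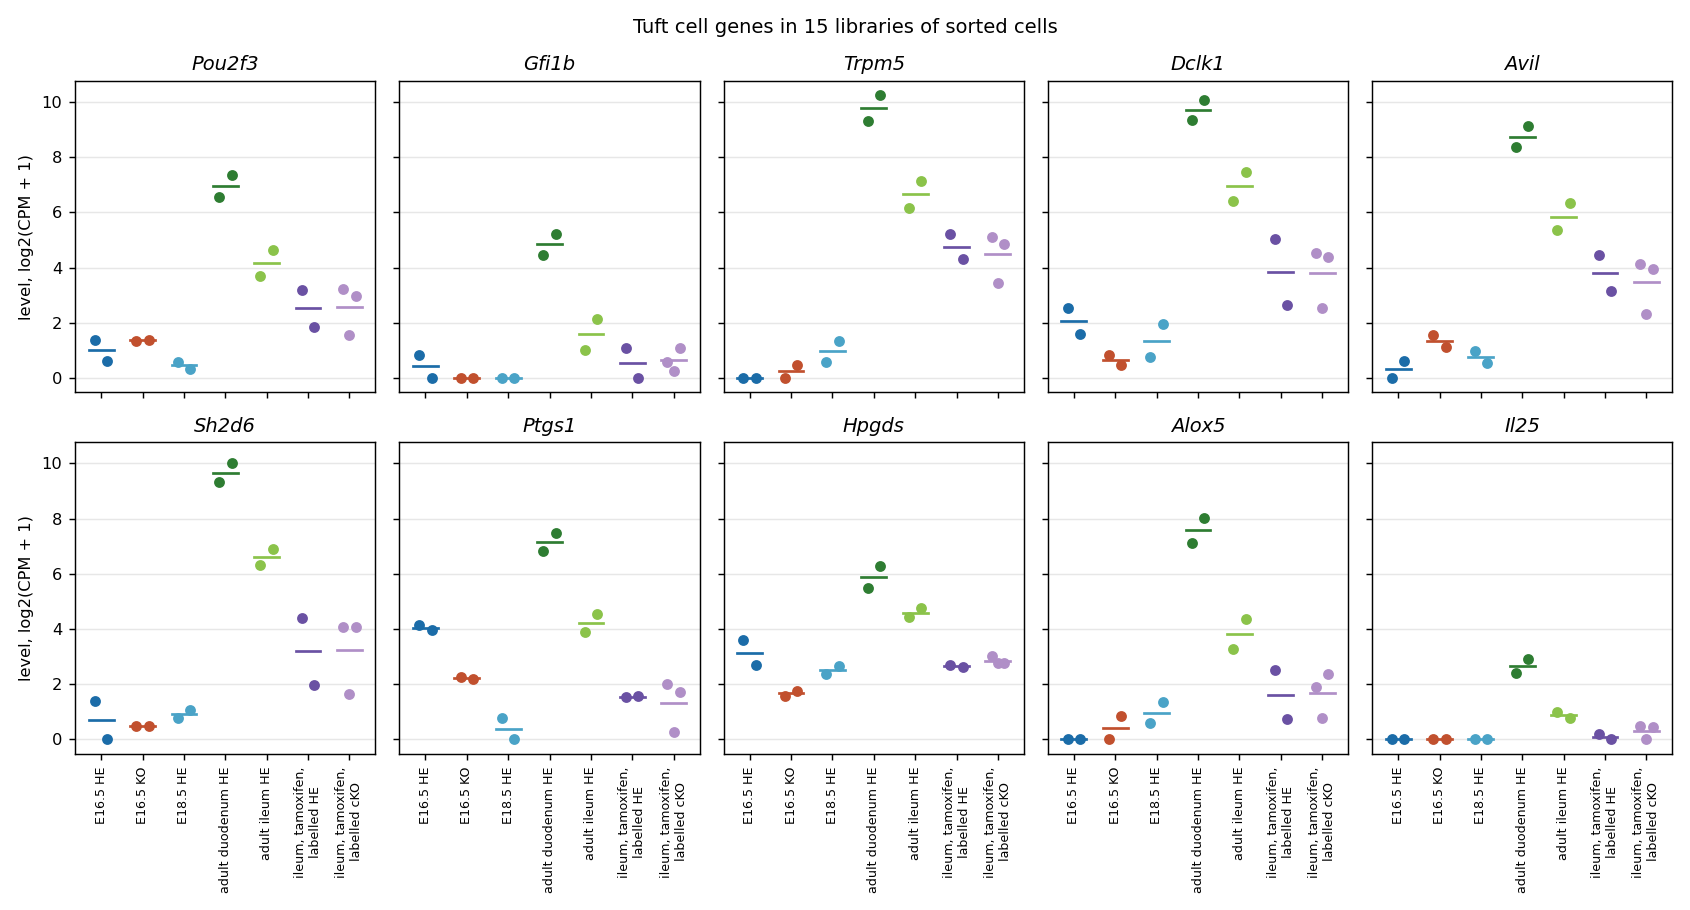
Level of each tuft cell gene in the 15 libraries of sorted cells, as log2(CPM + 1) on the vertical axis, by group on the horizontal axis. Points are libraries and bars are group means. The 2 duodenum libraries are the highest for all 10 genes, and only Ptgs1 has an E16.5 HE pool above an adult ileum library of the Lgr5-DTReGFP strain.

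Set per length (mean CPM for each kb of merged exons, so that genes can be compared), Sh2d6 led in adult duodenum at 491, followed by Trpm5 at 145, Avil at 130, Dclk1 at 56.4, Alox5 at 48.2, Pou2f3 at 41.5, Ptgs1 at 37.6, Gfi1b at 15.6, Hpgds at 9.37 and Il25 at 5.09. The spread between the 2 mice was wide, as mouse 2 exceeded mouse 1 in the duodenum for each of the 10 genes. The order of the 10 genes was the same in both mice, with Trpm5 at 99.8 and 190 and Avil at 95.8 and 164 CPM per kb as the closest pair at the top, and Pou2f3 at 29.9 and 53.1 and Ptgs1 at 28.9 and 46.1 lower down. With 2 mice these neighbouring levels were not tested against each other.

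To follow the genes from late gestation to the adult, the 4 adult HE libraries were compared with the 2 E18.5 HE libraries. These 4 libraries came from 2 mice and entered as separate samples, so the SE and p-values count each mouse more than once. All 10 genes rose, where 9.36% of all genes tested rose (limma on log2(CPM + 1), FDR 0.1 and a fold change of 1.5). The differences on that scale ran from 1.77 ± 0.61 (SE, adjusted p = 0.0924) for Il25 to 7.25 ± 1.04 (adjusted p = 0.00418) for Trpm5, with Sh2d6 at 7.22 ± 0.98, Dclk1 at 6.98 ± 0.95, Avil at 6.54 ± 0.96 and Pou2f3 at 5.10 ± 0.93. Hpgds alone was at 1 CPM or more in both E18.5 embryos. The other 9 genes entered the test through the adult libraries in which they are high, so the count of 10 describes them and supports nothing further. Adult and E18.5 libraries did not overlap in any of the 10 genes, nor in 43.3% of all genes. Gfi1b and Il25 were both at 0 in the E18.5 embryos. Against the floor of 3 reads there (0.692 CPM), Gfi1b was at least 41.4-fold and Il25 at least 7.84-fold higher in the mean of the duodenum. The mean of the ileum was 3.22 and 1.23 times that floor. It rests on 4 and 15 reads for Gfi1b and 4 and 3 for Il25, so it gives no lower bound of a rise. In bulk RNA, fewer tuft cells and less RNA per cell cannot be told apart.

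The other pathway genes form lists of taste signalling, eicosanoid partners, type 2 receptors and further tuft genes. Of the 41 tested, 32 rose and 3 fell, where 9.36% of all genes rose and 9.65% fell. A pathway gene could enter this test through the adult libraries alone, so these counts describe the genes and support nothing further. In taste signalling 7 of 9 rose, among them Rgs13 (6.08 log2), Plcb2 (5.91), Ffar3 (4.23) and Sucnr1 (2.48), which regulate or carry signals of G protein-coupled receptors or are such receptors. Among 22 further tuft genes 19 rose and 1 fell, among them Siglecf (6.61), Cd300lf (6.39) and Spib (5.90). Eicosanoid partners were split. Alox5ap, the partner of 5-lipoxygenase, and Ltc4s, the leukotriene C4 synthase, rose by 4.73 and 2.60 log2, whereas Tbxas1, the thromboxane synthase, fell by 1.53 log2 and Lta4h, the leukotriene A4 hydrolase, fell by 0.83 log2. In the type 2 list 4 of 5 rose, with the IL-25 receptor subunit Il17rb at 4.40 log2, Ptprc at 4.35, Il13ra1 at 1.40 and Il4ra at 0.65.

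Genes of other epithelial cells differed between the stages as well. The summed level of 8 Paneth genes was 156 to 169 CPM at E18.5 and 11837 to 29005 CPM in the adult, with 8 of 8 called higher. That of 8 goblet genes was 376 to 523 CPM and 1577 to 8316 CPM, with 4 of 8 called higher. That of 8 enterocyte genes went the other way, from 1659 and 1983 CPM to 460 to 1248 CPM, with 5 of 8 called lower and 1 higher. The summed macrophage list went from 19.8 to 28.5 CPM to 1485 to 3124 CPM with 1 of 6 tested genes called higher. That gene was Lyz2, a lysozyme that Paneth cells may also express (5.42 ± 1.17 CPM at E18.5 and 2197 ± 682 in the adult), while its defining marker Csf1r was at 6.60 and 7.65 CPM at E18.5 and 3.45 to 4.65 CPM in the adult. Cpa3, which defines the mast cell list, was at 0 at both ages, and the summed T and B cell list was 1.40 to 3.35 CPM at E18.5 and 3.35 to 8.90 CPM in the adult. Their part in the rise of the tuft cell genes was not tested. Age cannot be told apart from the preparation of the cells, which was from isolated crypts only in the adult. Leaving out either E18.5 embryo left 4 genes (without the first: Trpm5, Avil, Dclk1 and Sh2d6) or 3 (without the second: Trpm5, Dclk1 and Sh2d6) past the threshold.

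**Figure D2:**
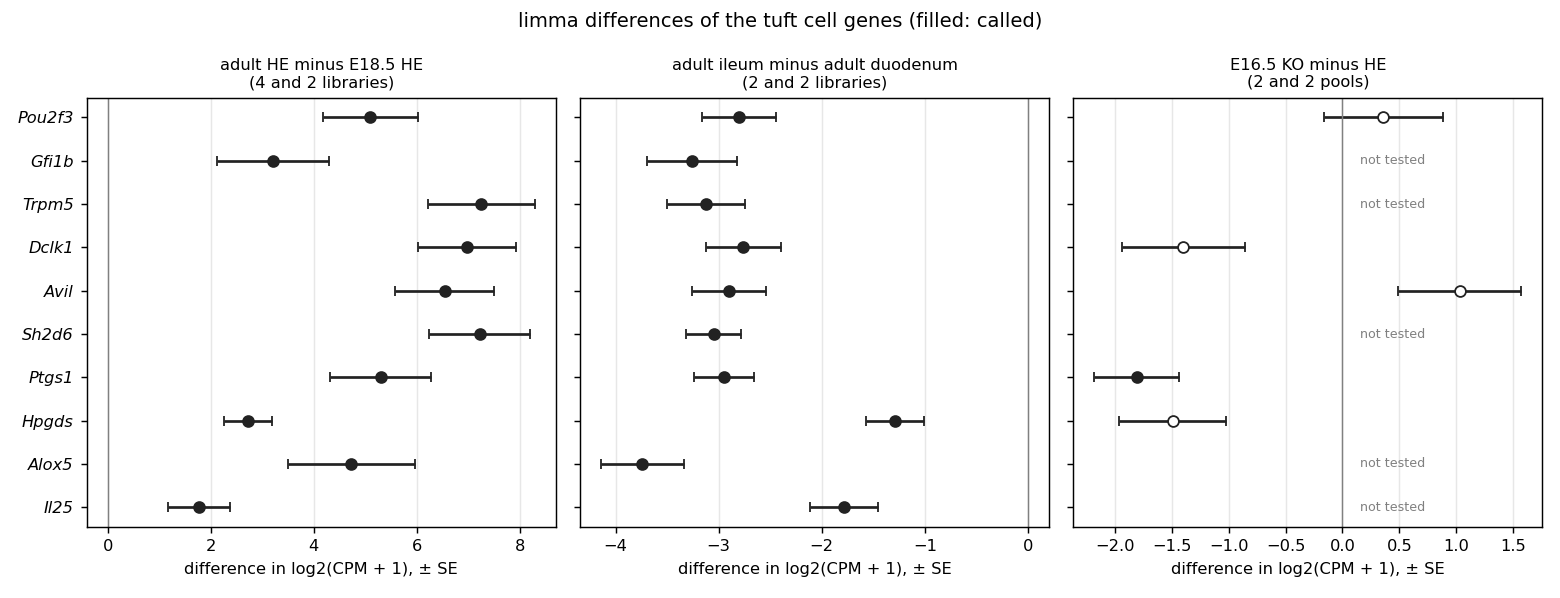
Differences of the tuft cell genes from limma, in log2(CPM + 1) with the SE as bars, for adult minus E18.5, ileum minus duodenum and E16.5 KO minus HE. Filled points passed FDR 0.1 and a fold change of 1.5, open points did not. All 10 genes pass in the first 2 panels with opposite signs, and only Ptgs1 passes in the last.

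All 10 genes were also lower in the ileum than in the duodenum of the same 2 adult mice, where 4.64% of all genes fell in the ileum. The fall ranged from -1.29 ± 0.28 log2 (adjusted p = 0.0493) for Hpgds to -3.74 ± 0.40 (adjusted p = 0.00498) for Alox5, and the other 8 genes lay between -1.78 and -3.26. Taken mouse by mouse, the duodenum exceeded the ileum 15.7 and 13.1 times for Alox5, 9.02 and 8.59 times for Trpm5, 8.23 and 8.04 times for Ptgs1, 7.73 and 6.95 times for Pou2f3, and 2.14 and 2.94 times for Hpgds. The 2 mice thus gave close ratios for these genes, although the second had higher levels in both regions for 9 of the 10. Ratios lay further apart for Gfi1b (20.7 and 10.6 times) and Il25 (4.30 and 9.36 times), both with few reads in the ileum. Il25 entered the test only through the duodenum. The libraries of the 2 regions did not overlap in any of the 10 genes, nor in 45.8% of all genes.

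A pathway gene could enter the test of the regions through the duodenum libraries alone, so the counts describe these genes only. Of 41 tested, none rose and 26 fell, where 4.64% of all genes fell. Among them were Alox5ap (-3.23 log2), Inpp5d (-3.21), Spib (-3.15), Ly6g6f (-3.10), Fyb (-3.03), Ffar3 (-2.64), Rgs13 (-2.63), Il17rb (-2.36), Ltc4s (-2.30), Plcb2 (-2.25) and Ptprc (-1.75). In contrast, 0 of 8 stem cell genes and 0 of 8 Paneth genes were called by limma (0 of either at an unadjusted p under 0.05), and Lgr5 was at 308 and 346 CPM in duodenum and 339 and 356 CPM in ileum. Enterocyte genes moved with the tuft cell genes, as 7 of 8 fell in the ileum and their sum was 870 to 1248 CPM against 460 to 472 CPM, while the goblet sum was 1577 to 1733 CPM in duodenum and 2254 to 8316 CPM in ileum. Their part in the fall was not tested. Without the duodenum library of mouse 2, only Sh2d6 remained past the threshold, although the other 9 genes kept their direction and an unadjusted p under 0.05. With the mouse as a block, all 10 stayed past it.

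To see whether loss of Lgr5 alters these genes in the embryo, KO and HE pools were compared at E16.5. Only 5 of the 10 genes reached 1 CPM in 2 pools. Ptgs1 fell in KO pools by 1.81 ± 0.37 on the log2 scale (adjusted p = 0.0981), close to the threshold, where 0.527% of all genes were called. Hpgds was lower by a difference of -1.49 ± 0.47 (adjusted p = 0.226) and Dclk1 by -1.40 ± 0.54 (adjusted p = 0.294), neither passing the threshold. HE and KO pools did not overlap for 4 of the 5 genes (all but Pou2f3), nor for 46.0% of all genes. Avil, unlike the other genes apart, was higher in KO pools. Dclk1 had only 6 and 4 reads in HE and 2 and 1 in KO pools, and Avil 0 and 1 against 5 and 3. Pou2f3 (0.36 ± 0.52, adjusted p = 0.800) and Avil (1.03 ± 0.54, adjusted p = 0.420) did not pass the threshold. Of 26 pathway genes, 0 were called by limma (7 at an unadjusted p under 0.05). With the litter as a block, Ptgs1 (adjusted p = 0.00340) and Hpgds (adjusted p = 0.0944) were both called lower, where 4.80% of all genes were called, although pools of 1 litter did not deviate together (r = -0.0324). Leaving out any of the 4 pools ended the call of Ptgs1.

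Genes of other cell types also differed between the pools. Of 8 enterocyte genes, 5 were called lower in KO pools. Their sum was 1684 and 2186 CPM in HE pools and 860 and 1014 CPM in KO pools. The sum of 8 Paneth genes was higher in KO pools (161 and 310 against 109 and 117 CPM). So was that of 8 goblet genes (525 and 842 against 398 and 416 CPM). Genes of several non-epithelial cells were lower in the KO pools. The sum of 8 mesenchyme genes was 750 and 1738 CPM in HE pools and 174 and 465 CPM in KO pools, with Col1a1 at 154 to 435 and 34.9 to 114 CPM. Macrophage genes summed to 55.2 and 112 CPM against 19.2 and 26.4 CPM, and globin and other erythroid genes to 1059 and 1179 CPM against 310 and 492 CPM. Endothelial genes overlapped, with 70.0 CPM in HE and 8.55 CPM in KO in the first litter and 28.4 CPM in HE and 33.1 CPM in KO in the second. Ptgs1 and Hpgds are among the genes that such non-epithelial cells express. The part of any of these cell types in the difference was not tested.

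Between the HE embryos of E16.5 and E18.5, 4 of the 10 genes could be tested and Ptgs1 alone fell, by 3.67 ± 0.39 on the log2 scale (adjusted p = 0.00104), where 49.6% of all genes were called. Dclk1 (-0.71 ± 0.53), Hpgds (-0.63 ± 0.39) and Sh2d6 (0.23 ± 0.49) did not pass the threshold. This comparison shares its HE pools with that of the knockout. Mesenchyme genes (8 of 8) and macrophage genes (6 of 8) were called lower at E18.5 in the same comparison, with sums of 66.4 to 77.1 and 19.8 to 28.5 CPM at E18.5, and their part in the fall of Ptgs1 was not tested. Leaving out either E18.5 embryo ended the call, and leaving out either E16.5 pool gave 2 calls.

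After tamoxifen the tuft cell genes were low in the 5 adult ileum libraries, and 9 of the 10 (all but Gfi1b) lay below both ileum libraries of the Lgr5-DTReGFP mice, a difference of strain and sort that was not tested. Trpm5 was at 36.1 and 18.9 CPM in the libraries labelled HE and 33.8, 9.8 and 28.2 CPM in those labelled cKO. Dclk1 was at 32.1 and 5.2 CPM against 22.2, 4.75 and 19.9 CPM, and Sh2d6 at 20 and 2.95 CPM against 15.9, 2.1 and 15.7 CPM. The labelled groups overlapped in these 3 genes, since each held libraries with high and with low values.

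By the labels none of the 9 genes tested was called (0 by limma at FDR 0.1, 0 at an unadjusted p under 0.05), and 0.0504% of all genes were. The differences lay between -0.33 (Avil) and 0.18 (Hpgds), with SE up to 0.91 (Sh2d6). With the genotypes of the supplementary table, 6 of 9 genes rose in cKO libraries, where 2.54% of all genes rose. They were Sh2d6 (2.37 ± 0.24, adjusted p = 0.00450), Dclk1 (2.08 ± 0.24, adjusted p = 0.00741), Alox5 (1.51 ± 0.31, adjusted p = 0.0586), Avil (1.43 ± 0.28, adjusted p = 0.0543), Pou2f3 (1.42 ± 0.26, adjusted p = 0.0451) and Trpm5 (1.20 ± 0.25, adjusted p = 0.0629). In that grouping 7 of 9 genes did not overlap between genotypes, as did not 39.5% of all genes, and 6 of 40 pathway genes rose and none fell. Paneth genes moved the other way, with 6 of 8 lower. The libraries labelled HE 2 and cKO 2, which make up HE in that grouping, also had fewer reads (3084842 and 5715414 against 8122346 to 9976867) and fewer genes above 0 (22675 and 24944 against 32121 to 42154) than the other 3. Their enterocyte sums were 765 and 679 CPM against 889 to 1268 CPM, and the part of these differences was not tested. Without the library labelled cKO 2 the calls in that grouping were Dclk1 and Sh2d6 alone, and without that labelled HE 2 or cKO 3 there were 4. Lgr5 itself did not pass the threshold in either grouping (0.49, adjusted p = 0.864 by the labels, and -0.37, adjusted p = 0.368 by the supplementary table). With both conflicting libraries left out, no gene was called by limma and 6 had an unadjusted p under 0.05. Which genotype those 2 libraries have cannot be told from the data used here, so the direction for loss of Lgr5 in the adult rests on that choice.

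**Figure D3:**
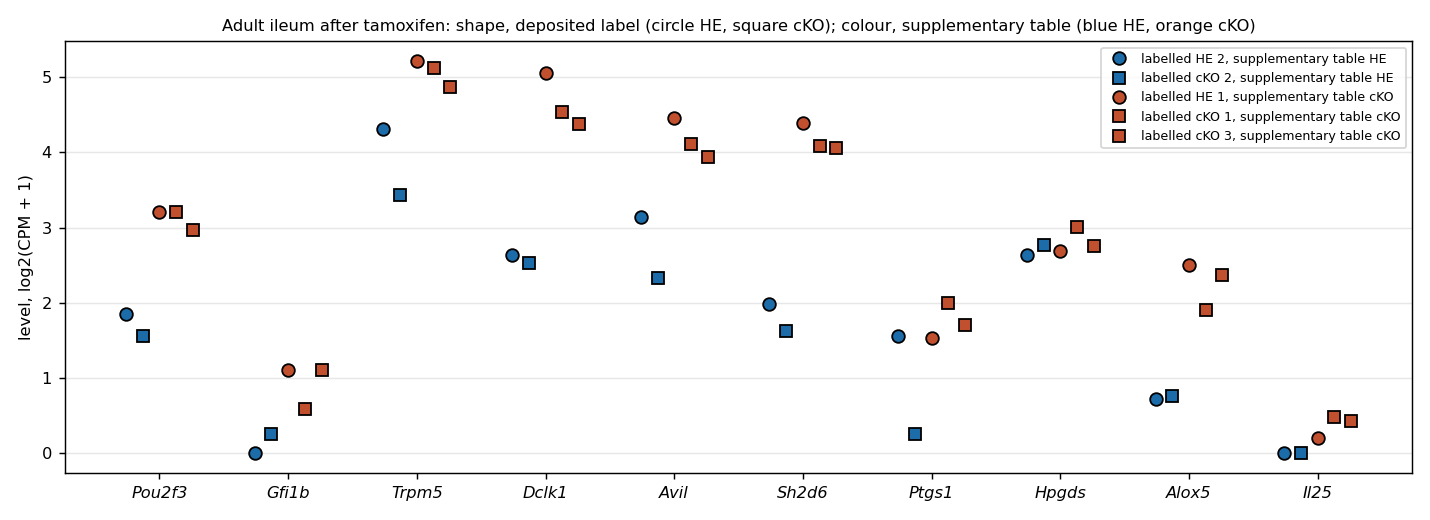
Level of each tuft cell gene, as log2(CPM + 1), in the 5 adult ileum libraries after tamoxifen. Shape gives the genotype of the deposited label (circle HE, square cKO) and colour that of the supplementary table (blue HE, orange cKO). The libraries labelled HE 2 and cKO 2 hold the lowest values for Dclk1, Sh2d6, Avil, Pou2f3, Trpm5 and Alox5.

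Organoids held little RNA of most tuft cell genes. Over the 18 WT libraries the lowest, median and highest levels were 1.55, 3.48 and 11.3 CPM for Trpm5, 1.15, 2.40 and 6.45 CPM for Avil, and 0.10, 1.58 and 7.80 CPM for Dclk1. Gfi1b did not exceed 0.30 CPM in any of the 30 libraries and Il25 did not exceed 0.10 CPM, so neither was tested. Hpgds was the exception, with a lowest, median and highest level of 14.6, 44.5 and 130 CPM in WT and 19.9, 32.0 and 61.2 CPM in KO libraries. Per length it led the 10 genes, at 8.00 CPM per kb in WT and 5.95 in KO, where Avil, the next, was at 0.803 and 0.724. Culture WT30 was the highest of the 3 WT cultures in every condition for Dclk1, Trpm5 and Avil, as the plot of organoid levels shows.

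The dose of Rspondin, the ligand of Lgr5 that raises Wnt signalling, was compared at 100 and 5 ng/ml for each ligand and genotype, which gave 48 tests of 8 genes. Pou2f3 rose with dose in WT cultures under each ligand. Under Rspo1 it was at 1.70, 2.15 and 3.95 CPM at 100 ng/ml and 0.10, 0.65 and 0.65 CPM at 5 ng/ml in WT10, WT5 and WT30. Under Rspo2 it was at 2.20, 2.30 and 7.90 CPM against 0.70, 0.70 and 1.5 CPM. Under Rspo3 it was at 1.35, 1.25 and 2.65 CPM against 0.20, 0.20 and 0.25 CPM. All 9 WT pairs were higher at 100 ng/ml, by 1.27 ± 0.33 (adjusted p = 0.00244), 1.23 ± 0.33 (adjusted p = 0.00654) and 1.14 ± 0.33 (adjusted p = 0.00549) on the log2(CPM + 1) scale.

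In KO cultures Pou2f3 rose with Rspo3, from 0.15 and 0.40 CPM to 1.75 and 2.05 CPM in KO7 and KO2 (1.19 ± 0.40, adjusted p = 0.0187). With Rspo1 it was at 0.30 and 0.95 CPM at 5 ng/ml and 1.70 and 2.05 CPM at 100 ng/ml (0.85 ± 0.40, adjusted p = 0.111, and 0.0217 with the culture as a block). With Rspo2 the 2 KO cultures moved in opposite directions, from 1.60 to 2.85 CPM in KO7 and from 3.25 to 1.35 CPM in KO2, whose low-dose library is the one that stood apart.

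Ptgs1 was the one gene higher at 100 ng/ml in all 15 pairs of libraries of the same culture and ligand. In KO cultures it was at 0.10 and 0.55 CPM under 5 ng/ml Rspo1 in KO7 and KO2, and 1.40 and 2.00 CPM under 100 ng/ml (1.04 ± 0.28, adjusted p = 0.00810). Under Rspo3 it went from 1.5 and 1.0 CPM to 5.10 and 4.45 CPM (1.37 ± 0.28, adjusted p = 4.16e-04). Under Rspo2 it went from 1.05 and 0.60 CPM to 2.5 and 4.25 CPM, with a difference of 1.24 ± 0.28 that did not pass the threshold (adjusted p = 0.106). In WT cultures it rose under Rspo1 (0.63 ± 0.23, adjusted p = 0.0250), from 0.15 to 0.80 CPM at 5 ng/ml to 0.95 to 1.65 CPM at 100 ng/ml, and did not pass the threshold under Rspo2 (0.50, adjusted p = 0.0947) or Rspo3 (0.50, adjusted p = 0.0747).

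The only other member called for dose was Alox5, which fell in KO cultures under Rspo3 by 0.50 log2 (adjusted p = 0.0328), from 2.70 and 2.55 CPM to 1.75 and 1.40 CPM. In all, 8 of 48 tests passed FDR 0.05. Calls were common among all genes, at 53.4%, 33.4% and 51.4% for Rspo1, Rspo2 and Rspo3 in WT and 29.8%, 0.115% and 44.5% in KO, and the tuft cell genes had 2, 1 and 1 calls of 8 in WT and 1, 0 and 3 of 8 in KO. Without the KO2 library at 5 ng/ml Rspo2, 0.0261% of all genes were called for KO Rspo2, with a single low-dose library assumed to vary like the other groups. TMM scaling moves the median of all genes by -0.08 to -0.32 log2 in the dose comparisons, and under it 7 of the 8 calls held, all but that of Ptgs1 in WT under Rspo1.

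With the culture as a block, 22 of the 48 dose tests were called (20 higher and 2 lower at 100 ng/ml), where 45.6% of tests of all genes were. Calls were then added for Pou2f3 in KO under Rspo1, for Trpm5 in WT under Rspo1 (0.80) and Rspo2 (0.75) and in KO under Rspo3 (0.90), and for Avil in WT under Rspo1 (0.78) and Rspo3 (0.55) and in KO under Rspo3 (0.85). Hpgds rose in WT under Rspo1 (0.64) and Rspo3 (1.20) and in KO under Rspo3 (0.74), and fell in WT under Rspo2 (-0.64, adjusted p = 0.00327). Ptgs1 was called in all 6 comparisons. Without the library that stood apart, 21 tests were called and Ptgs1 in KO under Rspo2 was lost (0.97, adjusted p = 0.0920). Counted by pair, 14 of 15 were higher at 100 ng/ml for Pou2f3, 13 for Avil, 12 for Trpm5, 9 for Hpgds and 6 for Dclk1.

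**Figure D4:**
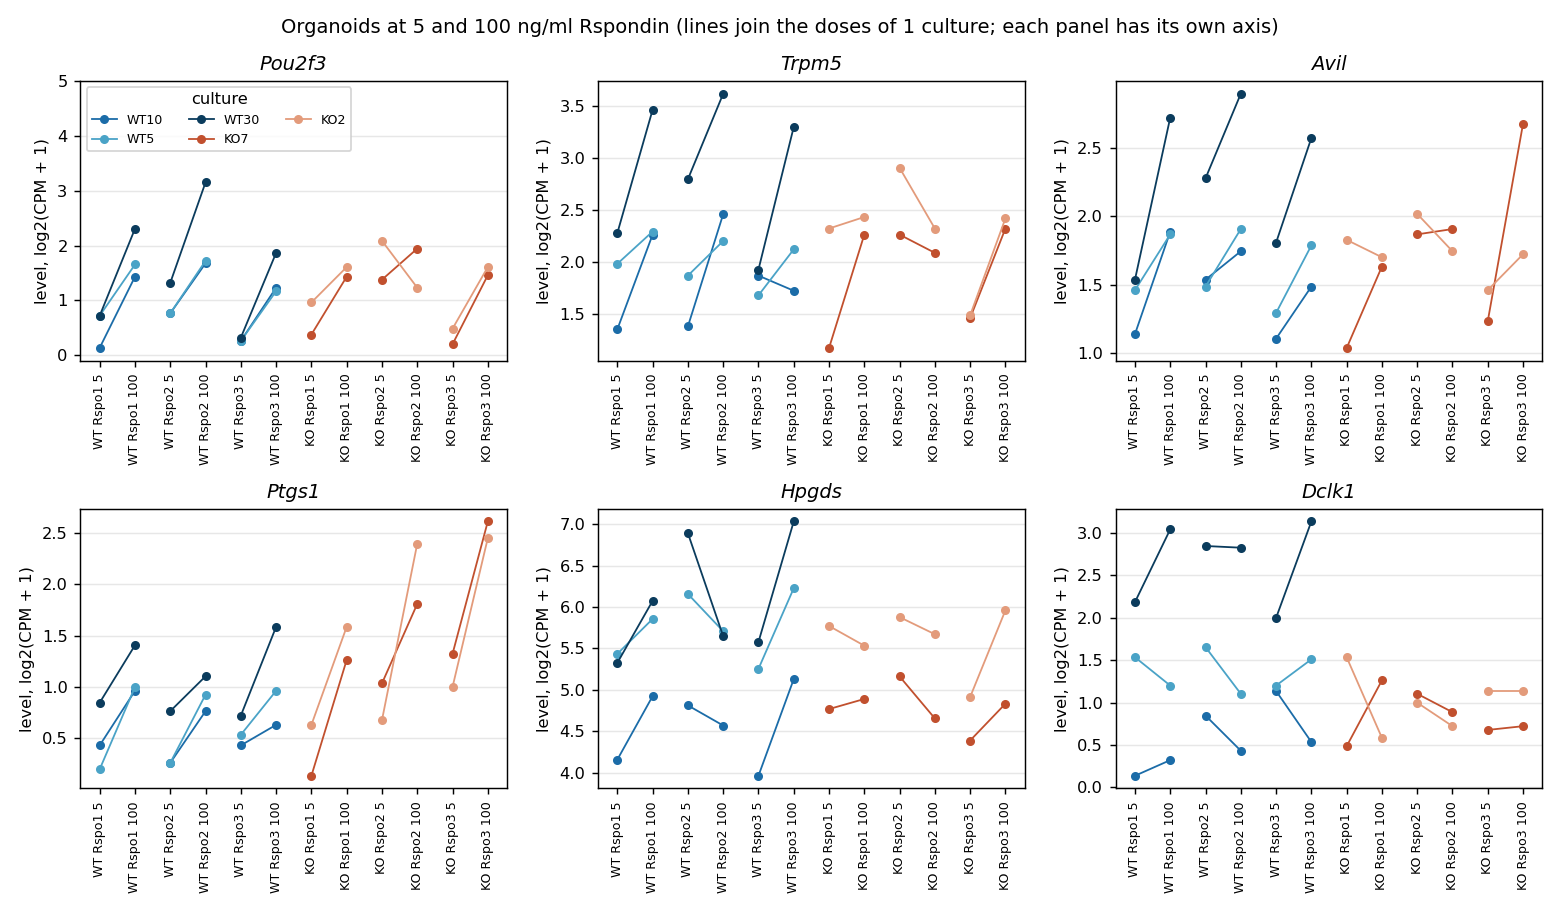
Levels of 6 tuft cell genes in organoids, as log2(CPM + 1) with an axis for each panel, at 5 and 100 ng/ml of each Rspondin. Lines join the 2 doses of 1 culture. Ptgs1 is higher at 100 ng/ml in all 15 pairs and Pou2f3 in 14, while Dclk1 shows no common direction and is highest in culture WT30.

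Of the 30 pathway genes tested in organoids, 7, 10 and 7 were called higher and 3, 1 and 3 lower at 100 ng/ml of Rspo1, Rspo2 and Rspo3 in WT, and 4, 1 and 4 higher and 1, 0 and 2 lower in KO. Among all genes the shares called in either direction were 53.4%, 33.4% and 51.4% in WT and 29.8%, 0.115% and 44.5% in KO. Gng13, a G protein subunit of taste signalling, rose under Rspo1 (1.13) and Rspo3 (1.94) in WT and under the same ligands in KO (0.85 and 1.66). Ltc4s rose in WT under Rspo1 (0.78) and Rspo2 (1.02). Stem cell genes rose in 8 of 8 in each comparison except KO under Rspo2, where 0 of 8 were called by limma with the library that stood apart (0 at an unadjusted p under 0.05) and without it (3 at that p).

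Genotype was compared in KO against WT organoids for each ligand and dose, in 48 tests. Ptgs1 alone differed, being higher in KO cultures under 100 ng/ml Rspo2 (1.17 ± 0.26, adjusted p = 0.0233) and 100 ng/ml Rspo3 (1.47 ± 0.26, adjusted p = 0.00444). Its levels were 2.5 and 4.25 CPM in KO against 0.70, 0.90 and 1.15 CPM in WT under Rspo2, and 5.10 and 4.45 CPM against 0.55, 0.95 and 2.00 CPM under Rspo3, and the genotypes did not overlap in either, nor in 25.1% and 29.1% of all genes. Under 100 ng/ml Rspo1 the difference was 0.30 ± 0.26 (adjusted p = 0.750). The share of all genes called was 0.214% and 0.125% for Rspo1 at 100 and 5 ng/ml, 1.20% and 4.54% for Rspo2 (0.549% at 5 ng/ml without the library that stood apart), and 0.868% and 0.193% for Rspo3. Calls for Ptgs1 in the organoids and in the E16.5 pools had opposite signs, higher in KO organoids and lower in KO pools. Without WT10 or without WT5 neither genotype call was made, and without KO7 or without KO2 1 was.

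The ligands Rspo2 and Rspo3 were set against Rspo1 in 64 tests, of which 0 were called by limma (4 at an unadjusted p under 0.05), where 9.19% of tests of all genes were. With the culture as a block 6 were called. Hpgds was then higher in WT under Rspo2 at 5 ng/ml (0.98, where 35.9% of all genes were called) and under Rspo3 at 100 ng/ml (0.51, where 15.2% were). In KO at 5 ng/ml Rspo3, where 26.3% of all genes were called, Hpgds was lower (-0.62) and Ptgs1 higher (0.78). The calls of Trpm5 (0.84) and Pou2f3 (1.06) under Rspo2 at 5 ng/ml in KO, where 31.9% of all genes were called, were absent without the library that stood apart, and Ptgs1 was then called (0.74, adjusted p = 0.0476, where 14.5% of all genes were). Whether the dose effect differed between KO and WT gave 0 calls in 24 tests (3 at an unadjusted p under 0.05), where 0.146% of tests of all genes were called (0.0139% and again 0 members without the library that stood apart), and with the culture as a block 1 call, where 1.33% were.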

How the data were processed

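The authors trimmed reads with Trimmomatic 0.36, mapped them to GRCm38 with STAR 2.5.3a, counted them on genes with HTSeq 0.9.1 and deposited CPM, 1 table for sorted cells (Ovation SoLo libraries) and 1 for organoids (NEBNext with rRNA depletion). Deposited CPM were found to be rounded up to the next 0.05, and depth was recovered from their steps. Whole reads were recovered for the 4 E16.5 pools (100% of low values), and edgeR 4.0.16 was run there only. With 2 or 3 libraries a group, p-values rest on the spread between few samples, moderated over all genes. In organoids without the block they take libraries of the same culture as independent, and genotype rests on 3 WT and 2 KO cultures.

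A gene entered a test if the number of its libraries at 1 CPM or more was no less than the size of the smaller group (2 in organoids). Tests used limma 3.58.1 (R 4.3.3) on log2(CPM + 1), with eBayes and a trend, and Benjamini-Hochberg adjustment over all genes. Fold changes of low genes are understated on that scale. Sorted cells were called at FDR 0.1 and a fold change of 1.5, organoids at FDR 0.05 in 1 fit of 12 groups. Litter and mouse blocks rest on the labels; 2 mice gave both regions. Deviations of same-culture libraries correlated at 0.349 to 0.759, those of the same mouse at 0.257 and those of the same litter at -0.0324. Named genes are the 10 members, up to 4 pathway genes of each list with the largest called change, and the 10 genes most like the members, less 1 gene that is not reported here. Ly6g6f and Fyb follow that rule. The members and lists were chosen with earlier results of these data known. Axin2, Ascl2, Olfm4 and Lyz2 were chosen after their values were seen. The fits were tested on simulated data. Python 3.11.15 was used.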

Additional observations from a re-analysis of the deposited data

Results flagged for a closer look

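The dose effect of Rspo2 on Pou2f3 differed between KO and WT organoids with the culture as a block, by -1.38 log2 (KO minus WT, adjusted p = 0.0424 by limma). Of all genes, 3.97% were called in that comparison. Pou2f3 was picked out because the test of the difference itself passed the threshold. Without the block it did not (adjusted p = 0.248). The library labelled KO2 at 5 ng/ml Rspo2, which had the highest Pou2f3 level of the KO libraries (3.25 CPM), also had Lgr5, Axin2, Ascl2 and Olfm4 in the range of the 100 ng/ml libraries. The KO7 library of that condition was in that range too for Axin2, Ascl2 and Olfm4 (138, 16.0 and 376 CPM), and below it for Lgr5 (20.6 CPM). Without the KO2 library the difference was -1.07 with the block and -1.02 without the block, and it then rests on KO7 alone at the low dose in KO. No group holds 4 or more libraries, so single outlying libraries were not tested.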

How the results depend on the processing

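Of 119 alternative counts of called genes over 9 results, 79 stayed within 1.5 times the reported count. At E16.5 the count of 1 became 0 with a pseudocount of 0.1, with every gene that has a nonzero library, and with FDR 0.05 and no fold change limit. It became 2 with the litter block, with 1 fit of all 15 libraries and with edgeR on recovered reads with the block. Leaving out a pool gave 0 in each case. The count at E18.5 against E16.5 ranged from 0 to 2, that of adult against E18.5 from 3 to 10, and that of ileum against duodenum from 1 to 9, when a library was left out. Ileum against duodenum gave 3 with every gene that has a nonzero library. After tamoxifen the count of 0 became 6 with the supplementary genotypes, and with those it was 2 or 4 or 6 when a library was left out. In organoids the 8 dose calls became 0 with a mean of at least 10 CPM, where Hpgds alone was tested, and ranged from 5 to 11 without a culture or the library that stood apart. The 2 genotype calls became 0 with a pseudocount of 0.1 and with the mean of at least 10 CPM, and ranged from 0 to 2. The 0 ligand calls became 1 with a pseudocount of 0.1 and with TMM, and ranged from 0 to 2. The causes were not tested.

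With the culture block, dose gave 22 calls, ligand 6 and the difference of the dose effect 1, and without the library labelled KO2 at 5 ng/ml Rspo2 the block gave 21, 5 and 0. Leaving out that library, leaving out both tamoxifen libraries with conflicting genotypes, the supplementary genotypes without each library, and edgeR with the block were chosen after seeing the data. The block kept 10 calls for the regions, 2 for genotype, 1 for E18.5 against E16.5 and 0 after tamoxifen. With the number as a block the adult against E18.5 gave 8, and samples there share only a number.

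Single genes that were called kept their direction in 408 alternatives, of which 73 ended the call. No member reached a mean of 10 CPM over all libraries of either embryonic comparison, and edgeR was not run outside the E16.5 pools, where reads were recovered.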

Other observations

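Across the 15 sorted-cell libraries genes whose log2(CPM + 1) closely followed the mean of the 10 tuft cell genes were Ccdc129, 1810046K07Rik, Spib, Inpp5d, Rgs22, Gm19719, Rgs13, Alox5ap and Gm42609, with Pearson's r from 0.989 to 0.995 among 16327 genes. These values describe libraries that share stage and region, so they carry the difference between embryo and adult. Each tuft cell gene followed the mean of the other 9 with r from 0.762 (Ptgs1) to 0.987 (Pou2f3 and Sh2d6).

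Across the 30 organoid libraries the likeness was lower and named other genes, with Cog7, Pde3b, Slc7a2, Cdk14 and Dnmt3a leading at r of 0.795 to 0.830 among 14284 genes, followed by Fzd1, Gm45353, Nrp2, Gm43429 and Zfp709. These libraries share culture and dose. Trpm5 followed the mean of the other tuft cell genes at 0.909, Avil at 0.888 and Sh2d6 at 0.838, whereas Ptgs1 was at 0.315, Alox5 at 0.058 and Il25 at -0.054.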
